A study of Mus musculus with 703 samples.

Results

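Interferon-stimulated genes were represented here by 9 genes, namely Irf7, Irf9, Isg15, Ifit1, Ifit3, Oasl2, Rtp4, Bst2 and Usp18. They were chosen by name, as the rows of the count table that carry these symbols, and all 9 were found among the 19088 genes of the table. All 9 also passed the filter on low counts in every comparison, so every value below refers to all of them. The counts came from bulk RNA sequencing of the gastrocnemius, a calf muscle, with 1 library per mouse.

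The mice were CC-RIX animals, the F1 offspring of a cross between a pair of Collaborative Cross (CC) lines, which are inbred lines that each carry a different mosaic of the same founder genomes. There were 20 such strains from 19 parental lines: (CC001/UncJ x CC042/GeniUncJ)F1, (CC002/UncJ x CC043/GeniUncJ)F1, (CC002/UncJ x CC075/UncJ)F1, (CC004/TauUncJ x CC019/TauUncJ)F1, (CC009/UncJ x CC013/GeniUncJ)F1, (CC011/UncJ x CC005/TauUncJ)F1, (CC011/UncJ x CC027/GeniUncJ)F1, (CC012/GeniUncJ x CC002/UncJ)F1, (CC019/TauUncJ x CC042/GeniUncJ)F1, (CC019/TauUncJ x CC075/UncJ)F1, (CC024/GeniUncJ x CC002/UncJ)F1, (CC030/GeniUncJ x CC002/UncJ)F1, (CC042/GeniUncJ x CC040/TauUncJ)F1, (CC042/GeniUncJ x CC060/UncJ)F1, (CC043/GeniUncJ x CC011/UncJ)F1, (CC043/GeniUncJ x CC042/GeniUncJ)F1, (CC051/TauUncJ x CC019/TauUncJ)F1, (CC051/TauUncJ x CC059/TauUncJ)F1, (CC051/TauUncJ x CC060/UncJ)F1 and (CC075/UncJ x CC042/GeniUncJ)F1. From 6 weeks of age the mice ate a diet labelled as 10% or 44% fat, each with fiber added, and some of them were given metformin, a glucose-lowering drug, at a concentration of 5 mg/mL, starting at 7 months. The untreated animals were 236 females and 233 males, with 235 of them on 44% fat and the others on 10% fat. The treated animals were 57 females and 59 males on 10% fat and 59 of each sex on 44% fat. Animals of a strain are genetically alike within a sex but are separate mice, so the spread within a strain is a spread between animals. The study had cohorts of 6 and 12 months and the labels give no animal's age, so that metformin, which began after the age of the younger cohort, cannot be told apart from age.

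Interferons are secreted signals, and cells release those of type I when sensors of foreign nucleic acid are triggered. Type I interferons bind the receptor Ifnar1 and Ifnar2, the kinases Jak1 and Tyk2 then phosphorylate STAT proteins such as Stat2, which takes part with Irf9 in the factor ISGF3, and this factor binds a DNA element upstream of interferon-stimulated genes. The products of those genes block viral replication, and many tissues, skeletal muscle included, express them at a low level without infection.

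The stretches of promoter that follow are the 250 bases upstream of the annotated start site, shown because they hold the letters GAAA, any 2 bases and GAAA again, a core of the element that ISGF3 and other interferon regulatory factors bind. The sequences are those of RefSeq on GRCm38.p6, which is the genome of a single reference strain and not of the CC lines, and each is written in the direction of transcription with the matched letters in capitals. A match on the opposite strand reads TTTC, any 2 bases and TTTC. The windows lie at chr4:156200819-156201068 on the minus strand for Isg15, at chr8:71537473-71537722 on the minus strand for Bst2, at chr19:34640639-34640888 on the plus strand for Ifit1, at chr19:34583279-34583528 on the plus strand for Ifit3 and at chr19:34607707-34607956 on the plus strand for Ifit3b, a paralog of Ifit3 that is no member but shares sequence with it.
Isg15: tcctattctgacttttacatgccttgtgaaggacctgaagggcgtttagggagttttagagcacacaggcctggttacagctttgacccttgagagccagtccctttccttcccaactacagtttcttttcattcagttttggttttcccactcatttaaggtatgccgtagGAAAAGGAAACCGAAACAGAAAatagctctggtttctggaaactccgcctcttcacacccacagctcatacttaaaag
Bst2: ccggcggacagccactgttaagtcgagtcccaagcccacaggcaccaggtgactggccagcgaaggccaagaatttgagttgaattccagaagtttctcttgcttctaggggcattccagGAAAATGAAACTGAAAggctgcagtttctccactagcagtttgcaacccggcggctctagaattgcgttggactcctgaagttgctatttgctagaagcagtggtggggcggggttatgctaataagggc
Ifit1: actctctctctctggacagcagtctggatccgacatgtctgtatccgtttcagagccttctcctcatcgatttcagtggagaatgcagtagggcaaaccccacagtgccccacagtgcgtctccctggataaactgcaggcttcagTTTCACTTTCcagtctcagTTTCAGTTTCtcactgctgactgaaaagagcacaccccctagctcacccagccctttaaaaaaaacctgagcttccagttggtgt
Ifit3: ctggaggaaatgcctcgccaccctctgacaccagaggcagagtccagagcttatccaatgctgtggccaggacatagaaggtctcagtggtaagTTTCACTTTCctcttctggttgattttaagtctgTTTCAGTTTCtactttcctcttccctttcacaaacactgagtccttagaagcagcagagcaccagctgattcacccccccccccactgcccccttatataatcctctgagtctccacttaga
Ifit3b: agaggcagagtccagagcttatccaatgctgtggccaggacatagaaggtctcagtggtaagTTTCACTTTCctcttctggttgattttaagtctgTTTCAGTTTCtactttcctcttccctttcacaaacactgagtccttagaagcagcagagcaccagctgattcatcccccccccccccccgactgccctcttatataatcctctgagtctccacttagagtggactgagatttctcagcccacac

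In Isg15, 3 overlapping matches ran from 78 to 57 bases upstream of the start site, and in Bst2, 2 overlapping matches began 130 bases upstream. Ifit1 had 2 separate matches ending 95 and 76 bases upstream, and Ifit3 had 2 beginning 156 and 122 bases upstream. Ifit3b had the same number, beginning 188 and 154 bases upstream. Of the 9 members, 7 had a promoter entry and 4 of these held the letters, while Irf7, Irf9 and Oasl2 did not. Rtp4 and Usp18 had no entry. Among all 32851 promoter entries of 300 bases, which include 50 bases after the start site, 3.44% held the letters on either strand. Counted by gene, with a match in any of its entries, 3.71% of 11782 tested genes held them. Among 67 other interferon-stimulated genes with an entry 36 did (53.7%). A match describes the letters in this window and not a measured binding site.

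On GRCm38 the members lie at chr7:141262706-141266481 (Irf7, ENSMUSG00000025498, minus strand), chr14:55603571-55610030 (Irf9, ENSMUSG00000002325, plus), chr4:156199424-156200818 (Isg15, ENSMUSG00000035692, minus), chr19:34640871-34650009 (Ifit1, ENSMUSG00000034459, plus), chr19:34583531-34588731 (Ifit3, ENSMUSG00000074896, plus), chr5:114896936-114912234 (Oasl2, ENSMUSG00000029561, plus), chr16:23609919-23614222 (Rtp4, ENSMUSG00000033355, plus), chr8:71534264-71537437 (Bst2, ENSMUSG00000046718, minus) and chr6:121245906-121270917 (Usp18, ENSMUSG00000030107, plus).

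Members differed in role and in level. Levels are given as CPM, the counts scaled to a common library total with the trimmed mean of M-values (TMM). Irf9, the DNA-binding part of ISGF3, had the highest median count per library (181, range 79 to 727), and Isg15, a small ubiquitin-like protein that is attached to other proteins, had the lowest (9), with 34 libraries at 0. The other medians were 99 for Ifit3 and 42 for Ifit1, which belong to a family that binds viral RNA, 73 for Oasl2, a relative of the oligoadenylate synthetases, 70 for Bst2, which tethers budding virus to the cell surface, 56 for Irf7, a factor that amplifies interferon production, 47 for Usp18, which removes Isg15 from proteins and restrains receptor signalling, and 45 for Rtp4, a receptor transporter protein with antiviral activity. Apart from Isg15, only Ifit1 had libraries at 0, namely 2. Per kilobase of exon, the median level was highest in Bst2 (1.58 CPM per kilobase) and Ifit3 (1.12), followed by Irf9 (0.698), Rtp4 (0.433), Usp18 (0.352), Ifit1 (0.324), Irf7 (0.299), Isg15 (0.242) and Oasl2 (0.23), against a median of 1.06 for the 17668 genes tested that have an exon length. The 90th percentile of Ifit3 over animals was 11.6 times its 10th percentile, against 9.37 times for Isg15 and 1.77 times for Irf9.

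Estimated counts totalled 27.4M to 96.1M per library with a median of 47.9M. All 12 markers of the skeletal muscle fibre were above 0 in every library, with summed levels of 92950 to 172600 CPM. The labels carry a sequencing identifier that falls into a lower range of 544 libraries and an upper range of 159, and (CC009/UncJ x CC013/GeniUncJ)F1 was in the upper range alone. In 15 libraries the Xist level went against the labelled sex and in 4 others the profile of variable genes was nearest to a strain other than the labelled one. They were kept under their labels, and each count of members called was repeated without them.

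The strains differed in every member. In untreated animals, 9 of 9 members passed the test for strain (edgeR quasi-likelihood F test over 20 strains, Benjamini-Hochberg adjusted p from 9.1e-191 for Ifit3 to 3.8e-05 for Irf9), but strain was called in 95.4% of all genes tested, so the count itself did not set the members apart. All 9 were also called with limma on variance-stabilised values (93.8% of all genes), with no range term (95.8%) and in the lower range alone (94.3%), while the upper range alone called 8 (55.1%), with Bst2 at an adjusted p of 0.072. The share of variance that followed strain, as omega squared on log2 CPM, differed widely between them. It was 82.7% for Ifit3, 36.8% for Oasl2, 30.2% for Ifit1, 23.3% for Rtp4, 20.4% for Irf7, 14.5% for Usp18, 13.5% for Isg15, 13.3% for Bst2 and 6.37% for Irf9, against a median of 15.4% and quartiles of 7.82% and 28.8% over the 16384 genes tested. Ifit3, Oasl2 and Ifit1 were thus above the upper quartile and Irf9 was below the lower. Shares of variance for diet were between -0.15% and 1.23% for the members and those for sex between 0.264% and 7.86%.

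At the upper end, (CC019/TauUncJ x CC075/UncJ)F1 had the highest strain median of 6 members. Its median was 2.06 CPM for Irf7 (lowest 0.804, highest 4.02, n = 24) against 0.865 CPM (0.212 to 1.67, n = 24) in (CC002/UncJ x CC043/GeniUncJ)F1, the lowest strain. For Oasl2 it was 3.4 CPM (1.49 to 7.54), against 0.909 CPM (0.233 to 1.81) in (CC012/GeniUncJ x CC002/UncJ)F1. For Ifit1 it was 1.6 CPM (0.702 to 3.2), against 0.519 (0 to 1.05) in (CC002/UncJ x CC043/GeniUncJ)F1. The ranges of single animals overlapped in all 3 genes, so the strains differed in their medians and not animal by animal. Irf9, whose strain medians ran only from 3.34 to 4.57 CPM, was highest in the 10 untreated animals of (CC009/UncJ x CC013/GeniUncJ)F1, Bst2 in (CC030/GeniUncJ x CC002/UncJ)F1 and Usp18 in (CC042/GeniUncJ x CC040/TauUncJ)F1. The highest strain median exceeded the lowest by 16.2 times for Ifit3, 3.97 times for Isg15, 3.74 times for Oasl2, 3.09 times for Ifit1, 2.85 times for Rtp4, 2.38 times for Irf7, 1.85 times for Usp18, 1.84 times for Bst2 and 1.37 times for Irf9. In the plot of strain medians, (CC002/UncJ x CC043/GeniUncJ)F1 was lowest of 20 for Irf7, Irf9, Ifit1, Ifit3 and Usp18.

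**Figure D1:**
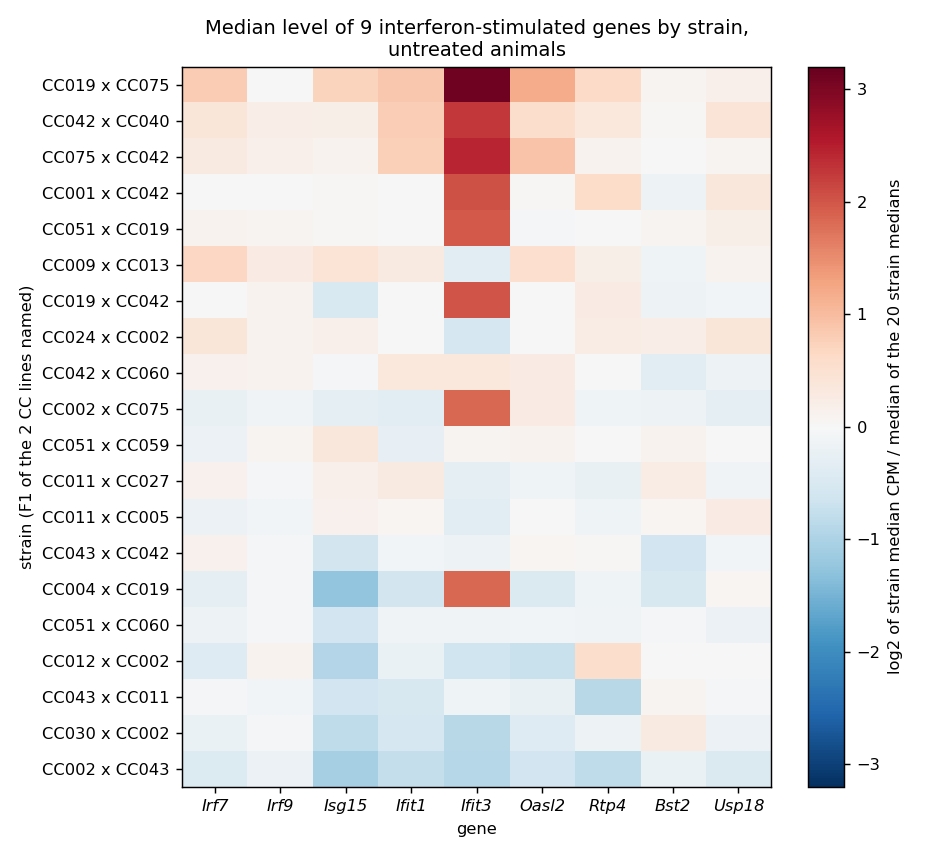
Strain medians of the 9 members in untreated animals, as the log2 ratio to the median of the 20 strain medians of that gene (colour), with strains ordered by their mean over the members. Ifit3 has the widest range of colours, with medians from 0.837 to 13.6 CPM, and Irf9 the narrowest, with 3.34 to 4.57 CPM.

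Ifit3 fell into separate levels by parental line. The strains with 1 parent among CC001/UncJ, CC019/TauUncJ, CC040/TauUncJ and CC075/UncJ had medians of 5.58 to 8.54 CPM (7 strains, 170 untreated animals, lowest 0.524, median 6.5, highest 15.1 CPM). The 12 strains with none of these parents had medians of 0.837 to 1.98 CPM (275 animals, lowest 0.172, median 1.22, highest 7.59 CPM). The only strain with 2 of these parents, (CC019/TauUncJ x CC075/UncJ)F1, had a median of 13.6 CPM (24 animals, 10.6 to 20.6 CPM). These 4 lines were picked after the values were seen, so the grouping is a description and was not tested. A level of 4 CPM, also set afterwards, was exceeded by 4 of 275, 159 of 170 and 24 of 24 untreated animals. Without the libraries whose Xist or strain profile went against the label, it was exceeded by 2 of 265, 156 of 165 and 24 of 24, and the lowest value with 1 such parent was 2.08 CPM. Since Ifit3 was among the genes that could enter the strain profile, this exclusion is not independent of it. Metformin-treated animals had not been used to pick the lines, although they share the strains. They gave medians of 1.12 CPM (n = 143), 6.47 CPM (n = 79) and 12.2 CPM (n = 12), and 3, 77 and 12 animals were above 4 CPM. CC042/GeniUncJ was a parent of strains at both levels, with 6.43 CPM beside CC001/UncJ and 1.98 CPM beside CC060/UncJ.

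**Figure D2:**
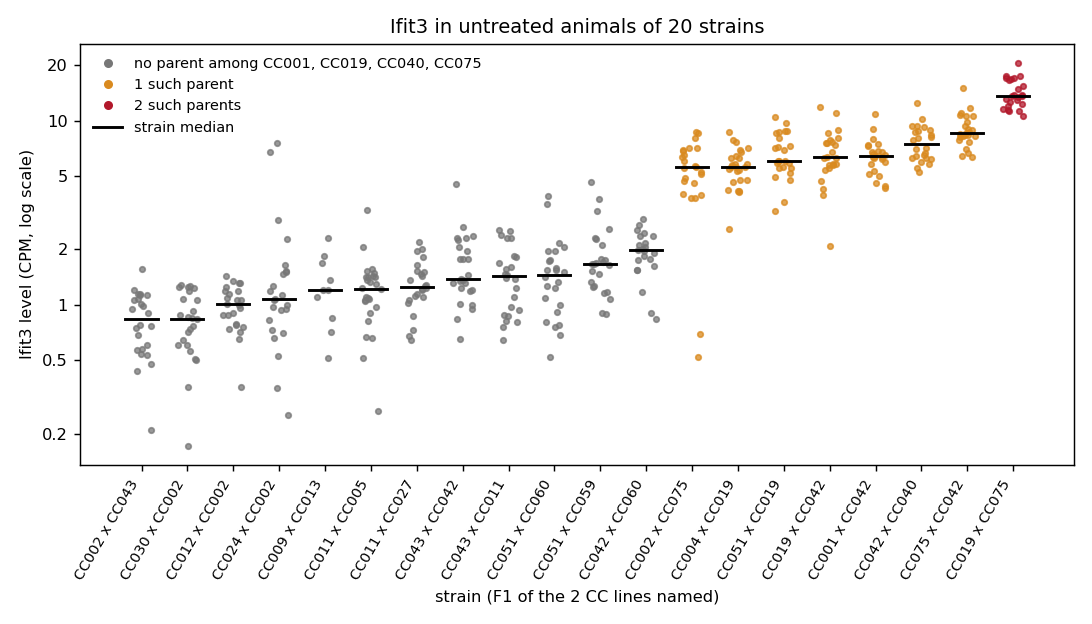
Ifit3 in every untreated animal (points, CPM on a log axis) by strain, ordered by strain median (black lines), with colours for 0, 1 or 2 parents among 4 CC lines picked after the values were seen. The 12 strain medians without such a parent stay at or below 1.98 CPM, the 7 with 1 lie at 5.58 CPM and above, and the strain with 2 lies at 13.6 CPM.

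Part of the Ifit3 signal could not be separated from its paralog. Of the 100-base windows of the longest Ifit3 transcript, 31.7% occur exactly in Ifit3b as well, which lies beside it on chromosome 19, and the counting divided such reads by estimation. Ifit3b followed the same lines less strictly. Its median was 1.26 CPM with none of the 4 parents, 4.13 CPM with 1 and 7.36 CPM with 2, but (CC011/UncJ x CC005/TauUncJ)F1, which has none of them, had 4.37 CPM of Ifit3b beside 1.22 CPM of Ifit3. The sum of both genes was 2.68, 10.8 and 20.8 CPM in the 3 sets of strains, in the same order. For Ifit1 the medians were 0.811, 0.912 and 1.6 CPM and for Oasl2 1.35, 1.61 and 3.4 CPM. Ifit1 shared 3.29% of its windows with Ifit1bl2 and Rtp4 shared 11.2% with Gm45338, while the remaining 6 members shared none. Exons of Irf9 overlap those of Rnf31 and exons of Rtp4 those of Gm45338, in both cases on the same strand. Strand could not separate reads in these overlaps, which are uncertain. Exons of Irf7 overlap those of Phrf1 and exons of Usp18 those of Gm44148, in both cases on the opposite strand. The sources used here do not state whether strand was used in counting, so reads in the opposite-strand overlaps are uncertain as well.

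The members rose and fell together between animals. After adjustment of log2 CPM for strain, sex, diet, treatment and identifier range, all 36 pairs of members were positively correlated over all libraries, with a median Pearson's r of 0.289 and a median Spearman's rho of 0.257, against a median r of -0.0026 over all pairs of the 17740 genes tested. The closest pair was Irf7 with Oasl2 (r = 0.549, rho = 0.477), followed by Ifit1 with Oasl2 (r = 0.473, rho = 0.41) and Oasl2 with Rtp4 (r = 0.461, rho = 0.416). For each of these the two-sided permutation p within strains was 1e-05, the smallest that 100000 permutations can give. The weakest was Isg15 with Ifit3 (r = 0.141, rho = 0.136, permutation p = 0.0002 and 0.00033). All 36 pairs had an adjusted permutation p under 0.05 for r, with Benjamini-Hochberg adjustment over the pairs, and the largest was 0.0002. The share of all gene pairs that would pass this test was not computed, so this count does not by itself set the members apart. Leaving out the 2 libraries farthest from the median of the first gene left r at 0.519 for Irf7 with Oasl2 and 0.146 for Isg15 with Ifit3. Within the identifier ranges the median r was 0.285 in the lower and 0.322 in the upper. The members share libraries and low counts, and age, which the labels do not give, was not adjusted for. Usp18, the deconjugase, was the least tied to the others, with r of 0.201 to 0.251.

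**Figure D3:**
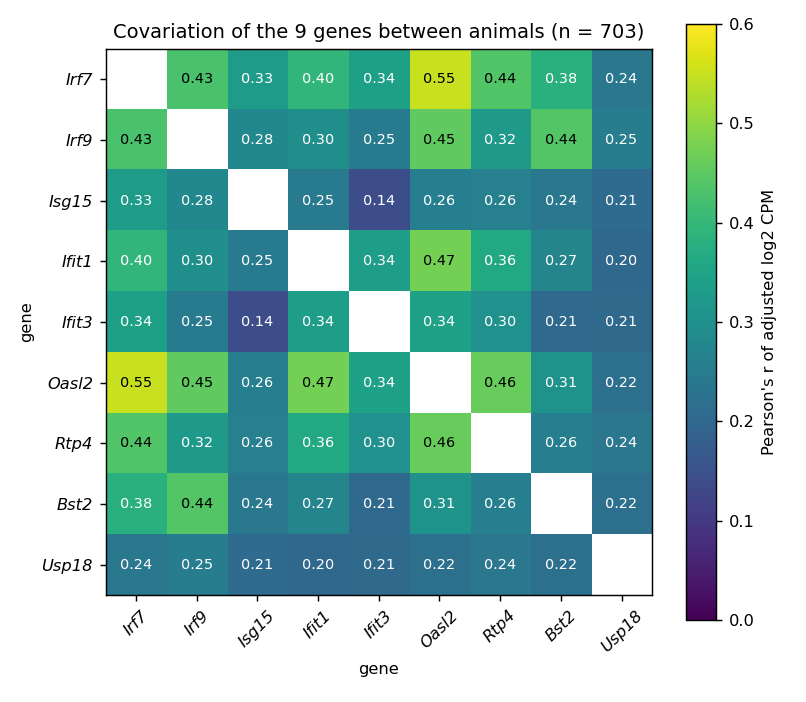
Pearson's r between members over all libraries, on log2 CPM adjusted for strain, sex, diet, treatment and identifier range (colour and number). All 36 values are above 0, from 0.14 for Isg15 with Ifit3 to 0.55 for Irf7 with Oasl2.

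Within single strains the same sign was usual but not general. The median r over the 36 pairs was highest in (CC051/TauUncJ x CC059/TauUncJ)F1 with 0.658 (36 libraries, 36 pairs above 0), but that value rested on 1 library. Without the library with the highest members of all, which is of that strain, it was 0.36, below the 0.494 of (CC019/TauUncJ x CC075/UncJ)F1. In (CC002/UncJ x CC075/UncJ)F1, which holds the next highest library, it was 0.233 with that library and 0.109 without it. It was lowest in (CC012/GeniUncJ x CC002/UncJ)F1 with 0.0598 (36 libraries, 22 pairs above 0). These exclusions were chosen after seeing the data. Between the means of the 20 strains the median r was 0.567, from -0.0816 for Ifit3 with Bst2 to 0.834 for Ifit1 with Oasl2. Of all libraries, 46 (6.54%) had all 9 members above the value fitted from the labels, 17 had none above it, and the most common number was 4 (122 libraries).

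Each member was also compared with the mean of the other 8. Irf7 (r = 0.625) and Oasl2 (r = 0.614) each had only 1 of 17731 non-member genes with a higher r. The number of genes ahead was 13 for Irf9, 15 for Rtp4, 21 for Ifit1, 44 for Bst2, 69 for Ifit3 and 167 for Usp18, with Isg15 (r = 0.379) between the last pair. The non-member genes most like the mean of the 9 members were Ly6e (r = 0.676), a cell surface protein, Gbp3 (0.609), a guanylate-binding protein, Parp14 (0.604), Stat2 (0.597), H2-T23 (0.597), B2m (0.593), Tap1 (0.585), Lgals3bp (0.583), Ifitm3 (0.577) and H2-D1 (0.573). They include parts of antigen presentation by MHC class I, namely the light chain B2m, the peptide transporter subunit Tap1 and heavy chains of the H2 family. These r values describe all libraries together and carry no test.

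By list, MHC class I processing followed the mean of the members most closely, with a median r of 0.495 over 12 genes. The other interferon-stimulated genes had a median r of 0.398 over 86 genes (lowest 0.0404 for Gbp6, highest 0.609 for Gbp3). Taken singly, 12 macrophage markers were close to this, with a median r of 0.353. The median was 0.243 for T and NK cell markers and 0.239 for B and plasma cell markers. The upstream parts of the pathway had lower medians than the interferon-stimulated and MHC class I lists. The median r was 0.19 for 6 interferon receptors, of which Ifnar2 had the highest (0.276), 0.179 for 10 JAK-STAT and IRF transducers, 0.238 for 17 nucleic acid sensors and adaptors and 0.119 for 13 negative regulators. Single genes were higher, up to 0.597 for Stat2 among transducers, 0.517 for Zbp1 among sensors and 0.52 for Trim30a among negative regulators. The lists overlap, since Stat2 and Zbp1 are also among the other interferon-stimulated genes. Over all tested genes other than members the median was -0.00306. Of 21 interferon ligands none was among the genes of the table, so ligand levels were not analysed here. Among receptors, median levels over all libraries were 10.95 CPM for Ifnar1, 3.62 CPM for Ifnar2, 16.4 CPM for Ifngr1, 52.7 CPM for Ifngr2, 4.04 CPM for Il10rb and 0.0389 CPM for Ifnlr1. Jak1 had a median of 146 CPM.

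Markers of other cell types moved with the members to unlike extents, and their part in the covariation was not tested. In bulk muscle, fewer cells of a type and less RNA per cell cannot be told apart. The summed level of 12 macrophage markers, at 15 to 460 CPM over the libraries, had r = 0.414 and rho = 0.325 with the mean of the members. The 5 T and NK cell markers in the table summed to 0 to 62.2 CPM (r = 0.321, rho = 0.22), with medians of Lck and Klrb1c under 0.05 CPM, and the 6 B and plasma cell markers to 2.97 to 783 CPM (r = 0.189, rho = 0.139). The 5 neutrophil markers in the table, of which S100a9 and Cxcr2 had medians under 0.05 CPM, summed to 0.193 to 21.5 CPM (r = 0.26, rho = 0.164), the 9 adipocyte markers to 310 to 1981 CPM (r = 0.163, rho = 0.119) and the 10 liver markers to 2.84 to 7627 CPM (r = 0.146, rho = 0.127). Endothelial markers had r = 0.0633 and muscle fibre markers r = -0.159. Plasmacytoid dendritic cells are a main source of type I interferon. The sum of their 7 markers other than Bst2, which include the muscle-expressed oxidase subunit Cox6a2, had r = -0.0562. Taken singly, these 7 had a median r of 0.109, from -0.061 for Cox6a2 to 0.182 for Runx2.

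The animal with the highest mean of the members was a female of (CC051/TauUncJ x CC059/TauUncJ)F1 on 44% fat with metformin, in which the mean of the members lay 2.65 above the fitted value on the log2 scale, while the quartiles over all libraries were -0.211 and 0.167 and the lowest value was -0.791. Its levels, against the median of the 17 other females of the strain, were 8.48 against 1.06 CPM for Irf7, 18.7 against 3.49 for Irf9, 2.11 against 0.237 for Isg15, 19.2 against 0.7 for Ifit1, 20.8 against 1.7 for Ifit3, 11.4 against 1.74 for Oasl2, 5.3 against 0.785 for Rtp4, 5.94 against 1.25 for Bst2 and 2.47 against 0.868 for Usp18. It was above all 17 in every member, and the ratio ran from 2.84 for Usp18 to 27.4 for Ifit1. Other genes of the pathway were high in it too, with 78.9 against 6.33 CPM for Gbp2, 231 against 50.6 CPM for B2m, 6.58 against 0.296 CPM for Cxcl10 and 14.9 against 0.584 CPM for Cxcl9, both of which are chemokines that attract T cells. Its macrophage markers summed to 239 CPM (85.2 to 111.2 CPM in the 17), its T and NK cell markers to 2.75 CPM (0.153 to 0.884), its B and plasma cell markers to 38.7 CPM (2.97 to 7.45) and its muscle fibre markers to 113500 CPM (119100 to 150000). Their part in its levels was not tested.

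**Figure D4:**
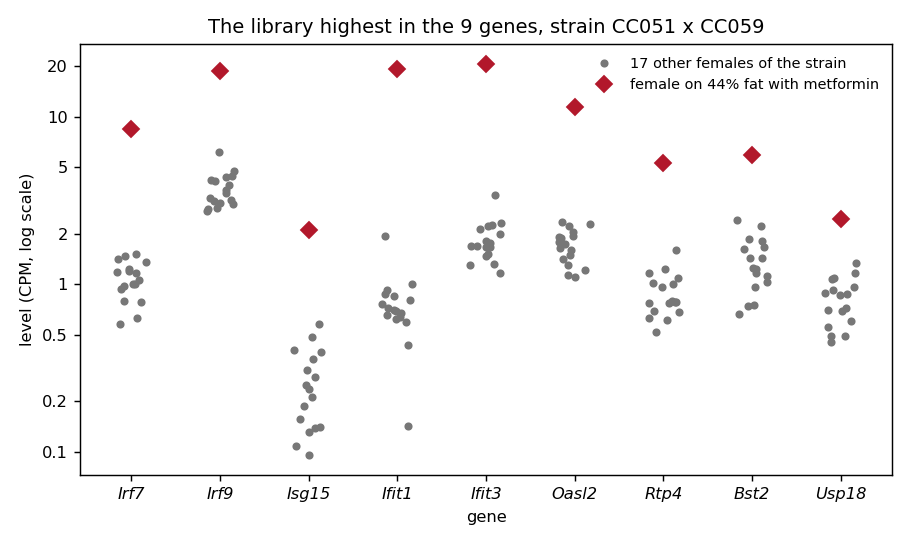
Levels of the 9 members (CPM, log axis) in the library with the highest mean of the members (red diamond) and in the 17 other females of its strain (grey points). The diamond is above every point in all 9 genes, at 19.2 CPM against a median of 0.7 CPM for Ifit1.

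The next highest was a female of (CC002/UncJ x CC075/UncJ)F1 on 10% fat with metformin, at 1.72 above the fitted value. It had 5.92 CPM of Irf7 against a median of 1.04 CPM in the 17 other females, 9.33 against 1.87 CPM of Oasl2 and 1.46 against 0.127 CPM of Isg15, but 1.16 CPM of Usp18, within the range of the 17 (0.302 to 1.28 CPM). Its macrophage markers summed to 460 CPM (69.9 to 133 in the 17) and its neutrophil markers to 21.5 CPM (0.685 to 2.3). In all, 11 libraries were more than 1 above the fitted value and 0 were more than 1 below. Both of the highest libraries came from treated animals, were in the lower identifier range and matched their labels, and the results below are given with and without them where they changed a call. Without the pair, the median r between members was 0.241.

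Most members differed by sex, chiefly with lower levels in males. In untreated animals, 7 of 9 members passed the test (edgeR, adjusted p under 0.05), 6 lower in males and 1 higher, where 67.1% of all genes tested were called, 37% lower and 30.1% higher. DESeq2 also called 7, with 66.3% of all genes. The members' share was thus close to that of all genes, and the median log2 fold change was -0.182 over the members against -0.018 over all genes tested. Oasl2 had a median of 1.65 CPM in 236 females (0.544 to 10.3) and 1.34 CPM in 233 males (0.233 to 7.54), a log2 fold change of -0.41 ± 0.05 (SE, edgeR adjusted p = 2.4e-14), and was lower in males in 17 of 20 strains. Rtp4 had 1.07 CPM in females (0.192 to 4.39) and 0.835 CPM in males (0.0411 to 3.15), a change of -0.35 ± 0.05 (edgeR adjusted p = 2.1e-09), lower in 16 strains. The ranges of the sexes overlapped almost entirely in both genes. Isg15 changed by -0.31 ± 0.08, Ifit3 by -0.25 ± 0.05, Irf7 by -0.18 ± 0.05 and Irf9 by -0.12 ± 0.03, with edgeR adjusted p from 6.3e-07 to 0.0016, and these were lower in 15, 16, 13 and 16 strains.

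Usp18 went the other way. Its median was 0.839 CPM in females (0.289 to 2.29) and 1.08 CPM in males (0.275 to 2.37), a log2 fold change of 0.29 ± 0.04 (SE, edgeR adjusted p = 2.9e-10), higher in males in 19 of 20 strains. Ifit1 (0.09 ± 0.06, adjusted p = 0.13) and Bst2 (-0.08 ± 0.05, adjusted p = 0.11) did not pass the edgeR test. The identifier ranges gave different counts. In the lower range alone 7 of 9 members were called (65.8% of all genes). In the upper range alone, with 69 untreated animals, 2 of 9 were called (26.1% of all genes), Oasl2 (-0.47 ± 0.13) and Irf9 (-0.2 ± 0.08), while Usp18 was 0.03 ± 0.12, Irf7 -0.04 ± 0.13 and Rtp4 -0.34 ± 0.15. Without the libraries that went against their labels 8 were called (68.5% of all genes), Bst2 in addition.

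The counts for other genes of the pathway stand beside those for all genes, of which 67.1% were called for sex, 37% lower and 30.1% higher in males. Of 82 other interferon-stimulated genes tested, 54 were lower and 8 higher in males, a share of 75.6% (median log2 fold change -0.15). Of 12 MHC class I processing genes 10 were lower and 2 higher, a share of 100% (-0.12). Of 17 sensors and adaptors 11 were lower and 1 higher, a share of 70.6%. Of 13 negative regulators 5 were higher and 6 lower, a share of 84.6% (0.01). The largest called changes were for Gbp6 (1.12 ± 0.08) and the chemokine Cxcl10 (-0.86 ± 0.11) among the interferon-stimulated genes, and for Socs1 (1.05 ± 0.12), an inhibitor of JAK kinases, among the negative regulators. Of 10 transducers 4 were higher in males, among them Jak2 (0.31 ± 0.02) and Irf5 (0.3 ± 0.04), and 4 were lower, among them Tyk2 (-0.23 ± 0.02) and Irf1 (-0.17 ± 0.03), a share of 80%. Of the receptors, Ifnar1 (-0.06 ± 0.02) and Ifngr2 (-0.15 ± 0.02) were lower, Ifnar2 (0.07 ± 0.03) was higher and Ifngr1 and Il10rb were not called. Of the macrophage markers 1 of 12 was called for sex, with median sums of 101.1 CPM in females and 98.8 CPM in males. Both tested T and NK cell markers were lower in males (median sums 0.429 and 0.354 CPM), and 3 of 4 tested B and plasma cell markers were lower and 1 was higher, with median sums of 21.6 CPM in females and 74 CPM in males. The part of these cells in the sex difference was not tested.

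**Figure D5:**
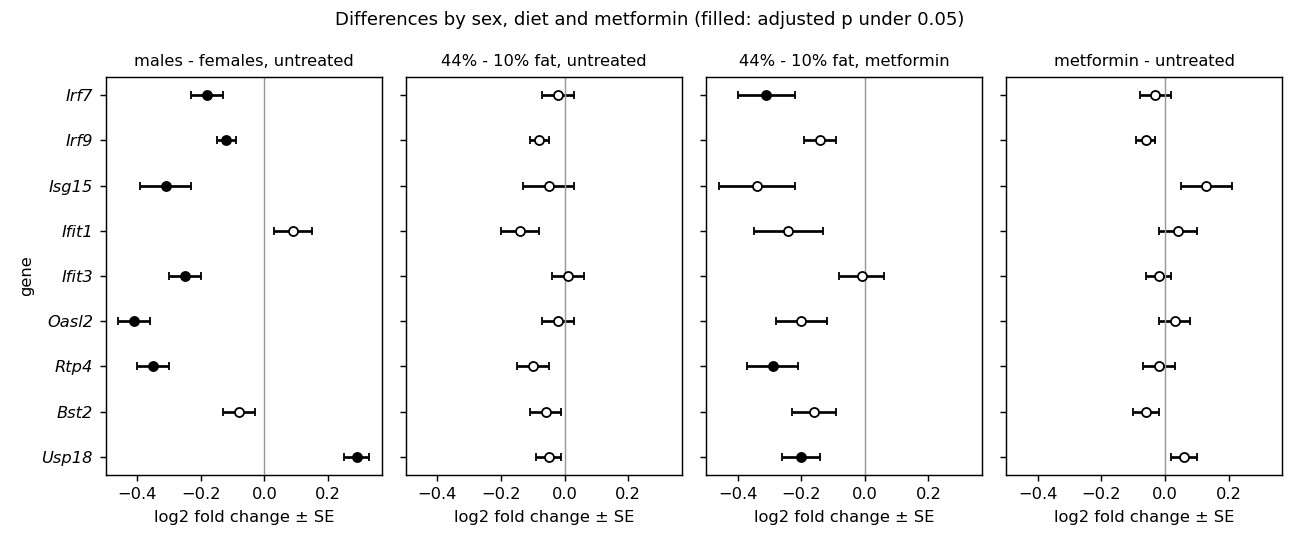
Log2 fold change of each member (points) with its standard error (bars) for sex, for diet without and with metformin, and for metformin, from edgeR, with filled points where the adjusted p was under 0.05. For sex 7 points are filled, for diet in treated animals 3 are, and for diet in untreated animals and for metformin none is.

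No member passed the test for diet in untreated animals. By edgeR, 0 of 9 members passed the adjusted test, where 20.3% of all genes tested were called, 10.1% in each direction. The upper range alone also called 0, with 2.2% of all genes and 2 members at an unadjusted p under 0.05. At an unadjusted p under 0.05 there were 2 over both ranges. DESeq2 called 0 while limma on the variance-stabilised values called 1, which was Irf9, each with 19.2% of all genes called. Irf9 had a median of 3.95 CPM on 10% fat (1.86 to 10.5) and 3.69 CPM on 44% fat (2.12 to 9.53), a log2 fold change of -0.08 ± 0.03 (SE, edgeR adjusted p = 0.0504), lower in 16 of 20 strains. Ifit1 had 0.906 CPM on 10% fat (0.0884 to 4.3) and 0.837 CPM on 44% fat (0 to 3.23), a change of -0.14 ± 0.06 (edgeR adjusted p = 0.056), lower in 17 strains. The other 7 lay between -0.1 ± 0.05 for Rtp4 and 0.01 ± 0.05 for Ifit3. The median over members was -0.054, against -0.003 over all genes tested.

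Among the signalling genes, 4 of 10 transducers were lower and 0 higher on 44% fat in untreated animals, a share of 40% against 20.3% of all genes, and among them were Jak2 (-0.13 ± 0.02) and Stat2 (-0.12 ± 0.03). Of the 5 receptors tested 0 were called by edgeR, with changes between -0.01 ± 0.03 for Ifnar2 and 0.04 ± 0.03 for Il10rb. Of 82 other interferon-stimulated genes 8 were lower and 3 higher, a share of 13.4% against 20.3% of all genes. The largest changes among them were for Ifi27l2a (0.39 ± 0.06), Tgtp1 (-0.34 ± 0.11) and Cxcl9 (0.28 ± 0.09). Of 13 negative regulators 2 were lower and 0 higher, a share of 15.4% against 20.3% of all genes, with a median change of 0.02. They were Socs1 (-0.46 ± 0.12) and Socs3 (-0.32 ± 0.07), both feedback inhibitors of cytokine signalling. None of 12 MHC class I processing genes was called by edgeR, with a median change of 0.

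In metformin-treated animals Irf7, Rtp4 and Usp18 were lower on 44% fat. All 9 fold changes were below 0 with a median of -0.2 (log2), against -0.008 over all genes tested, and 3 of 9 passed the edgeR test, where 12.1% of all genes were called and 6.79% were called lower. Irf7 had a median of 1.21 CPM on 10% fat (0.49 to 5.92) and 0.954 CPM on 44% fat (0.451 to 8.48), a log2 fold change of -0.31 ± 0.09 (SE, edgeR adjusted p = 0.005), lower in 15 of 20 strains. Rtp4 had 1.07 CPM on 10% fat (0.219 to 3.51) and 0.827 CPM on 44% fat (0.0539 to 5.3), a change of -0.29 ± 0.08 (edgeR adjusted p = 0.0065), lower in 17 strains. Usp18 had 1.08 CPM (0.3 to 2.8) and 0.913 CPM (0.293 to 2.47), a change of -0.2 ± 0.06 (edgeR adjusted p = 0.028), lower in 15 strains. The diets overlapped over most of their range in each of these genes. Of the members not called, Isg15 changed by -0.34 ± 0.12, Ifit1 by -0.24 ± 0.11, Oasl2 by -0.2 ± 0.08, Bst2 by -0.16 ± 0.07 and Irf9 by -0.14 ± 0.05, while Ifit3 was at -0.01 ± 0.07. At an unadjusted p under 0.05 there were 8.

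The number called rested on 1 library. Without the highest library, the treated (CC051/TauUncJ x CC059/TauUncJ)F1 female on 44% fat, 8 of 9 members were called lower on 44% fat, all but Ifit3 (-0.08 ± 0.06), where 12.4% of all genes were called. Ifit1 then changed by -0.39 ± 0.08 (edgeR adjusted p = 9.9e-05), Isg15 by -0.42 ± 0.12, Oasl2 by -0.25 ± 0.07, Irf9 by -0.17 ± 0.04 and Bst2 by -0.18 ± 0.06. Without the next highest library, on 10% fat, 3 were called (11.3% of all genes), and without both 7 were (11.8%). These exclusions were chosen after the values were seen. The highest library was picked for its high members and was on 44% fat, so its omission lowers the members on that diet in any case. The larger count is thus no separate support for a diet difference. By identifier range, 2 of 9 were called in the lower range (Irf7 -0.48 ± 0.12 and Rtp4 -0.42 ± 0.12) and 0 in the upper range (Irf7 -0.15 ± 0.14 and Rtp4 -0.11 ± 0.11) by edgeR, where 3.78% and 5.06% of all genes were called, with 6 and 1 at an unadjusted p under 0.05, and all 9 were below 0 in each range.

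Of 81 other interferon-stimulated genes tested in treated animals 11 were lower and 0 higher on 44% fat, a share of 13.6% that was near the 12.1% of all genes called, of which 6.79% were lower. Without the highest library 30 were lower and 0 higher, a share of 37% against 12.4% of all genes. As for the members, the omission by itself lowers the 44% fat side of genes that were high in that library. The largest called changes were for Iigp1 (-0.66 ± 0.18), Tgtp1 (-0.57 ± 0.16) and Tgtp2 (-0.56 ± 0.17), which are immunity-related GTPases. Of 12 MHC class I processing genes 2 were lower (16.7%), and 9 without the highest library (75%), among them Nlrc5 (-0.41 ± 0.11) and Tap1 (-0.33 ± 0.08). None of 10 transducers was called by edgeR with all libraries, and Stat2 (-0.11 ± 0.04) and Irf1 (-0.14 ± 0.05) were among those called lower without the highest. None of the 5 receptors tested was called by edgeR in either case. Macrophage markers had 0 of 12 called by edgeR with all libraries and 1 without the highest, and their sums had medians of 99.9 CPM on each diet.

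Whether the diet difference depended on treatment was tested as an interaction. By edgeR 0 of 9 members were called, where 0.0902% of all genes were called, so the diet differences with and without metformin were not shown to differ. The difference of differences (treated minus untreated) was -0.3 ± 0.1 for Irf7 (SE, edgeR adjusted p = 0.26, unadjusted p = 0.0026), the only member at an unadjusted p under 0.05 with all libraries in edgeR, and -0.29 ± 0.15 for Isg15. It was below 0 in all 9 members, with -0.01 ± 0.08 for Ifit3 as the smallest. Without the 2 highest libraries 5 members were at an unadjusted p under 0.05, in the lower range 4 and with limma on log2 CPM 2, and 0 were called in each. The lowest adjusted p among these was 0.07, for Irf7 in the lower range by edgeR, where 7 of 9 members were below 0.

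No member passed the test for metformin. By edgeR 0 of 9 were called, where 19.4% of all genes tested were called, 8.34% higher. Without libraries against their labels 0 were called as well (18.4% of all genes), with 0 at an unadjusted p under 0.05. With all libraries there was 1 at an unadjusted p under 0.05, Irf9, and limma on variance-stabilised values and DESeq2 also called 0. Irf9 had a median of 3.82 CPM in untreated animals and 3.52 CPM in treated ones, a log2 fold change of -0.06 ± 0.03 (SE, edgeR adjusted p = 0.14), and was lower in 15 of 20 strains. Without the highest library it was -0.09 ± 0.03 (edgeR adjusted p = 0.019), so that 1 of 9 was called (19.1% of all genes). The same held without the 2 highest (20.1%) and with no range term (26.8%). The 2 highest libraries were picked for their high members and were of treated animals, so their omission lowers the treated side in any case. The largest value was 0.13 ± 0.08 for Isg15, and the remaining members lay between -0.06 ± 0.04 for Bst2 and 0.06 ± 0.04 for Usp18. The signs of these small values were not stable, with 6 of 9 above 0 in the lower range and 1 of 9 in the upper, where 0.00566% of all genes were called. The treatment cannot be told apart from age, as above. Among other interferon-stimulated genes 6 of 86 were higher and 9 lower, including Cxcl10 (0.55 ± 0.1), Irgm2 (0.4 ± 0.06) and Ms4a4c (-0.73 ± 0.18). Ifngr1 (-0.09 ± 0.02), Jak2 (-0.05 ± 0.02) and Irf5 (-0.15 ± 0.04) were lower and the other receptors and transducers were not called. Of the cell markers, 4 of 5 of T and NK cells, 3 of 6 of B and plasma cells and 4 of 9 of adipocytes were lower with metformin. Of 10 endothelial markers 5 were lower and 1 higher, and 3 of 4 of neutrophils were higher. The remaining lists had from 0 of 10 (liver) to 3 of 12 (muscle fibre) called. The T and NK cell sums had medians of 0.384 CPM in untreated and 0.436 CPM in treated animals and means of 1.26 and 0.566 CPM, so the order of the medians was the opposite, and the highest were 62.2 and 5.74 CPM. The part of these cells in the values above was not tested.

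The metformin difference varied between strains in 5 of 9 members by the edgeR interaction test, where 11.6% of all genes were called. Adjusted p was 0.0004 for Ifit1, 0.0021 for Ifit3, 0.01 for Rtp4, 0.018 for Irf9 and 0.033 for Irf7. Without the highest library 1 of 9 remained under 0.05, Rtp4 (edgeR adjusted p = 0.014), where 11.7% of all genes were called. With all libraries limma on log2 CPM called 0 (3.06% of all genes), with Rtp4 at an adjusted p of 0.1 and 2 members at an unadjusted p under 0.05. In (CC051/TauUncJ x CC059/TauUncJ)F1, the strain of that library, Ifit1 had a median of 0.809 CPM in 12 treated animals (0.427 to 19.2) and 0.74 CPM in 24 untreated ones (0.143 to 2.86), so the medians were close while 1 animal was far above. Rtp4 was lower with metformin in (CC019/TauUncJ x CC042/GeniUncJ)F1, with a median of 0.67 CPM in 12 treated animals (0.203 to 1.21) against 1.11 CPM in 24 untreated ones (0.327 to 2.01), a mean difference of -0.74 on the log2 scale within sex and diet. It was higher in (CC002/UncJ x CC043/GeniUncJ)F1, with 0.624 CPM (0.0539 to 1.88, n = 12) against 0.519 CPM (0.0411 to 1.01, n = 24), a mean difference of 0.57. These are the strains with the lowest and the highest difference of 20, and treated and untreated animals overlapped in both. Of 86 other interferon-stimulated genes 32 were called by the same test, a share of 37.2% against 11.6% of all genes. Without the highest library 27 were, a share of 31.4% against 11.7%. Of 12 MHC class I processing genes 4 were called with all libraries and 1 without the highest. Macrophage markers were called in 7 of 12 cases and liver markers in 10 of 10 with all libraries, and the part of these cells in the result was not tested.

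The remaining interactions showed no member past the threshold. For diet by sex edgeR called 0 of 9 in untreated animals (0.568% of all genes), with 1 at an unadjusted p under 0.05, Bst2 (-0.2 ± 0.09), and limma on log2 CPM called 0. For diet by strain edgeR called 0 of 9 (4.13% of all genes), with 1 at an unadjusted p under 0.05, Ifit3 (edgeR adjusted p = 0.26), and limma on log2 CPM called 0. For metformin by sex edgeR called 0 of 9 (3.12% of all genes), with 1 at an unadjusted p under 0.05, Ifit1 (-0.22 ± 0.11), and limma on log2 CPM called 0.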

How the data were processed

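Gastrocnemius RNA from 703 mice was sequenced, 1 library per animal. The 469 untreated animals were 119 females and 115 males on 10% fat and 117 females and 118 males on 44% fat, and the 234 treated animals were 57 females and 59 males on 10% fat and 59 of each sex on 44% fat. The authors deposited estimated counts per gene on GRCm38, for which EMASE, run through GBRS, aligned reads to a transcriptome pooled over the founder strains and shared out ambiguous reads by expectation-maximisation. The deposited values are whole numbers, and genes with under 1 read in many of the libraries had been removed. They also deposited a table of variance-stabilised values on a log2 scale, made with DESeq2, which served as an alternative scale.

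Here counts were scaled by TMM and tested with edgeR 4.0.16 (quasi-likelihood, filterByExpr) on R 4.3.3, with Benjamini-Hochberg adjustment over all genes tested and a threshold of 0.05. Models held strain, sex, diet, treatment and identifier range. limma 3.58.1 and DESeq2 1.42.0 were alternatives, with RLE normalisation, no filter, no range term, a robust fit, each range alone and the omission of libraries that went against their labels. Covariation used log2 CPM with a prior count of 2, and 100000 permutations within strains in Python 3.11.15. The edgeR fit for diet was tested on counts simulated from the means and totals of the untreated libraries. Other fits, the correlations and the permutations were not covered by that simulation. Of the 1404 pairs of libraries compared, which were not all pairs within the groups, none agreed within counting noise (lowest chi-squared per degree of freedom 9.91).

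The text names all 9 members, the 10 genes most like them, measured receptors and transducers or a summary of them (a gene of the transducer list is not reported here), and from other lists the called genes with the largest changes, without listing all that the rule allows. The members and the lists were chosen with earlier results of these data known. Tests on the 2 highest libraries and the Ifit3 parental lines were added after the values were seen.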

Additional observations from a re-analysis of the deposited data

Results flagged for a closer look

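By the edgeR interaction test with Benjamini-Hochberg adjustment over all genes, the metformin difference varied between strains in 5 of 9 members. The same test called 11.6% of all genes. Its adjusted p was 0.0004 for Ifit1, 0.0021 for Ifit3, 0.01 for Rtp4, 0.018 for Irf9 and 0.033 for Irf7. With limma on log2 CPM 0 of 9 members were called, where 3.06% of all genes were. Strain differences (treated minus untreated, log2 within sex and diet) ran from -0.4 to 0.6 for Ifit1, from -0.57 to 0.41 for Ifit3, from -0.74 to 0.57 for Rtp4, from -0.35 to 0.16 for Irf9 and from -0.45 to 0.34 for Irf7. The strain (CC051/TauUncJ x CC059/TauUncJ)F1 had the highest difference for Irf7, Irf9 and Ifit3. Without its highest library edgeR adjusted p was 0.28 for Ifit1, 0.095 for Ifit3, 0.014 for Rtp4, 0.082 for Irf9 and 0.075 for Irf7.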

How the results depend on the processing

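Of the alternative values for counts, correlations and shares, 74 stayed within their limits and 12 moved. For diet in untreated animals RLE normalisation and limma on variance-stabilised values each called 1 member (20.4% and 19.2% of all genes). For sex the upper range alone called 2 (26.1%). For metformin 1 was called with no range term (26.8%), 1 without the highest library (19.1%) and 1 without the 2 highest (20.1%). For diet in treated animals the upper range alone called 0 (5.06%). In that comparison with both ranges, 8 were called without the highest library (12.4%) and 7 without the 2 highest (11.8%). For metformin by strain limma on log2 CPM called 0 (3.06%). With edgeR 1 was called without the highest library (11.7%) and 1 without the 2 highest (10.9%). The upper range holds fewer animals; for the other changes the cause was not tested.

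For single members, 568 values kept sign and call, 24 lost the call, 16 gained one and 22 changed sign, where signs were read from values rounded to 2 decimals and a value that rounded to 0 was not counted as a change. None of those 22 was called under the main setting. For diet in untreated animals Ifit3 became -0.16 in the upper range and -0.01 without libraries against their labels, and in treated animals 0.01 without the second highest library. For metformin, the upper range gave -0.08 for Isg15, -0.15 for Ifit1 and -0.16 for Oasl2, and the lower range 0.04 for Ifit3 and 0.08 for Rtp4. Ifit1 became -0.01 on variance-stabilised values, -0.08 without the highest library and -0.09 without the 2 highest, where Oasl2 became -0.03. For diet by sex, log2 CPM gave -0.04 for Ifit3. For metformin by sex, log2 CPM gave 0.02 for Irf9 and 0.05 for Rtp4, the lower range -0.01 for Oasl2, and the set without the 2 highest libraries 0.06 for Irf7, 0.05 for Irf9, 0.07 for Rtp4 and 0.01 for Bst2. For metformin by diet, Ifit1 became 0.01 in the lower range and Ifit3 0.02 without libraries against their labels.

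Low counts limit Isg15 most, with a median of 9 per library. Interactions were not run in the upper range alone. No paired analysis was possible because replicate numbers only name animals within a group.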
